A study of Homo sapiens with 18 samples.

Results

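DHRS2, ITGAM and LDLRAD4 are 3 of 63677 genes counted in NCI-H1299 cells that had been transfected with T-box transcription factors, in 18 RNA-seq libraries. They were chosen by their measured difference between the TBX2 libraries and the controls, so their values in that contrast, and every comparison that uses the TBX2 libraries, are given as a description without a test. The TBX3, TBX4 and TBX5 contrasts against the controls were tested, but they use the 6 control libraries that took part in this choice. Comparisons among TBX3, TBX4 and TBX5 use neither the TBX2 libraries nor the controls. All 3 chosen genes passed the filter on low counts (above 5 counts in 10 or more libraries), as did 15576 genes in all.

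NCI-H1299 is an established human line derived from a lung carcinoma. The cells, at passages 12 to 14, were grown in low glucose DMEM with 10% serum and transfected transiently by Lipofectamine 2000. The groups were TBX2 (human, Flag tag), TBX3 (human, HA tag), TBX4 (human, Flag tag), TBX5 (mouse Tbx5, HA tag), the empty vector (EV) and Ctl, whose treatment the labels do not name, with 3 libraries each. TBX3 and TBX5 were carried by a pCGN plasmid, and TBX2 and TBX4 by a pORF plasmid. TBX3 with TBX5, and TBX2 with TBX4, are thus compared on a like plasmid. The backbone of the empty vector is not given in the sources used here, so between a T-box group and the controls, or between groups on unlike plasmids, factor and backbone cannot be told apart. Transient transfection reaches only some of the cells, and each library pooled them. In such bulk RNA, fewer cells that use a gene and less RNA per cell cannot be told apart.

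T-box factors bind DNA through a shared domain, and TBX2 and TBX3 are best known as repressors, TBX5 as an activator. DHRS2 (Hep27) is a short-chain dehydrogenase/reductase that reduces dicarbonyl compounds and is known to bind MDM2, a ubiquitin ligase. ITGAM (CD11b) is the alpha subunit of the myeloid integrin Mac-1, which reaches the cell surface paired with the beta2 subunit ITGB2 and binds ICAM1 and complement fragments. LDLRAD4 is a small transmembrane protein that, like its relative PMEPA1, holds SMAD2 and SMAD3 away from the activated TGF-beta receptor and carries motifs for ligases of the NEDD4 type.

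On GRCh37, DHRS2 (ENSG00000100867) lies on the plus strand at chr14:24099324-24114848, and its canonical transcript starts at 24105573 and has 9 exons and 1676 bases. ITGAM (ENSG00000169896) lies on the plus strand at chr16:31271288-31344213, with 30 exons and 4719 bases. LDLRAD4 (ENSG00000168675) spans 435258 bases of the plus strand at chr18:13217497-13652754, with 7 exons and 8710 bases in the canonical transcript. No other gene overlaps the exons of DHRS2 or ITGAM. In LDLRAD4, 0.939% of the exon bases overlap an antisense lncRNA, and the counting did not use strand to separate the reads there.

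The 250 bases before the first annotated starts are shown because the 3 promoters differ in composition. Capitals mark TATAAA and GGGCGG, the GC box, which was read on either strand.

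DHRS2, chr14:24099074-24099323, plus strand: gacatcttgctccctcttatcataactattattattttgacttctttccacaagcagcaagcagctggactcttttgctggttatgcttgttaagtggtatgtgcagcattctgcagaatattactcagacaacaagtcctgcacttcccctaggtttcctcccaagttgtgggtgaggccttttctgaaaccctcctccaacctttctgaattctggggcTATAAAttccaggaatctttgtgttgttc
ITGAM, chr16:31271038-31271287, plus strand: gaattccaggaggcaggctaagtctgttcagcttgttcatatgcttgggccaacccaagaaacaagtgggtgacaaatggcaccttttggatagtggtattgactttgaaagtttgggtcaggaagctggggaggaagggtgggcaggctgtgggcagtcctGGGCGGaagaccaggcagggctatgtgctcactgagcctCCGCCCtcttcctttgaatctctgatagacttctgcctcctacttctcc
LDLRAD4, chr18:13217247-13217496, plus strand: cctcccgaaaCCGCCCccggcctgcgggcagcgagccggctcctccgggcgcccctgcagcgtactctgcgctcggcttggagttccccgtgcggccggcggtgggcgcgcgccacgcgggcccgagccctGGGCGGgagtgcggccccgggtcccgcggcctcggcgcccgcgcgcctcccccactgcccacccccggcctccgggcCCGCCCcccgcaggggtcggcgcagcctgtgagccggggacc

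The 3 genes shared no promoter type. The background was taken over the 250 bases before the canonical starts of 12297 tested protein-coding genes. None was computed for first annotated starts. In these canonical windows the median GC content was 66% and the median number of CpG dinucleotides was 22. The first-start window of DHRS2 had 43.2% GC with 0 CpG, and that of ITGAM had 53.2% GC with 2 CpG. LDLRAD4 stood at the other end, with 83.2% GC and 38 CpG. The 250 bases before the canonical starts, which lie farther downstream, had 46.4% GC with 2 CpG in DHRS2, 53.2% with 2 in ITGAM and 75.6% with 31 in LDLRAD4. The first-start window of LDLRAD4 held 3 matches of GGGCGG and that of ITGAM held 2, and 72.0% of the canonical windows held at least 1. TATAAA, a motif found in 3.46% of the canonical windows, stood 29 bases before the first annotated start of DHRS2. It had 0 matches in the 250 bases before the canonical start of DHRS2.

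The libraries held between 7365221 and 11743179 counts, and levels are given as CPM, that is, counts scaled for depth with TMM library sizes. A level of 3 counts, taken as the floor, was 0.191 to 0.593 CPM. A single gene, ENSG00000266658, took 29.4% of all counts, from 10.7% to 53.5% by library. The transfected TBX2 reached 4454 ± 367 CPM (SD, n = 3) in its libraries against 3.84 ± 0.578 in the 6 controls. TBX3, TBX4 and TBX5 were highest in their own libraries, at 21840 ± 3864, 7952 ± 481.5 and 200 ± 62.3 CPM (SD, n = 3). The TBX5 plasmid held mouse Tbx5, counted here on the human genome, so its level may be read too low. Comparisons between T-box groups were thus not made at equal measured levels of the transfected gene. TBX4 replicate c is titled with the number of the TBX4 libraries and the name TBX5, and its counts of the transfected genes were those of the TBX4 libraries, so it was kept with TBX4. Of 12 markers listed for lung epithelium and the adenocarcinoma line, KRT8 and KRT18 were read at 119 counts or more in each library. EPCAM, CDH1, KRT19, SFTPC and SFTPA1 had at most 3 counts in any library, although the line is labelled lung adenocarcinoma. The 4 tested markers of this list moved with TBX2. KRT8 (-0.79), KRT18 (-0.56) and VIM (-0.31) fell and KRT7 rose (1.37), with edgeR adjusted p of 2.86e-07, 7.83e-06, 0.00104 and 0.00382. KRT7 had few counts, with 1 to 15 in the control libraries and 11 to 28 with TBX2. The summed level of the 12 markers was 973 to 1069 CPM in the controls and 768 to 820 CPM with TBX2. VIM, which is not specific to epithelium, made up most of this sum. It had 7689 to 13492 counts in the control libraries, against 611 to 1155 for KRT18. The part of these marker changes in the results below was not tested.

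DHRS2 was higher than in the controls with TBX2, TBX4 and TBX5, and was near its control level with TBX3. In the TBX2 libraries its level was 35.3, 45.5 and 38.0 CPM. In the 6 control libraries it ran from 2.64 over a median of 4.17 to 5.14 CPM. The TBX2 libraries lay far above all controls, at 39.6 ± 5.32 CPM (SD, n = 3) against 4.19 ± 0.907 (SD, n = 6), which is 9.46-fold. In edgeR the log2 fold change was 3.23 (SE 0.12), ranked 9 of 15576 from the top.

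With TBX4, DHRS2 was read at 12.6, 13.5 and 12.8 CPM. With TBX5 it was read at 8.19, 10.1 and 13.4 CPM, and with TBX3 at 6.27, 4.36 and 4.77 CPM. The TBX4 and TBX5 libraries lay above each control library, and the TBX3 libraries overlapped the controls. DHRS2 rose with TBX4 by 1.61 on the log2 scale (SE 0.13, edgeR quasi-likelihood test, Benjamini-Hochberg adjusted p = 2.44e-09) and with TBX5 by 1.27 (SE 0.18, edgeR adjusted p = 8.96e-05). With TBX3 the log2 fold change was 0.27 (SE 0.18, edgeR adjusted p = 0.395) and did not pass the threshold of 0.1.

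The T-box groups were set side by side in 1 fit of all 18 libraries. TBX3 and TBX5 were on a like plasmid and TBX4 on another, so TBX4 against either cannot tell factor from backbone. DHRS2 was lower with TBX3 than with TBX4 by 1.35 on the log2 scale (log2 difference -1.35, SE 0.17, edgeR adjusted p = 5.97e-06) and lower than with TBX5 (log2 difference -1.003, SE 0.19, edgeR adjusted p = 0.00171). The difference from TBX5 did not pass under scaling by library totals (-0.75, edgeR adjusted p = 0.671). TBX4 and TBX5 were not told apart, with a log2 difference of 0.35 (SE 0.16, edgeR adjusted p = 0.600). The level in TBX2 exceeded that in TBX4, the next group, by 1.61 on the log2 scale (SE 0.12), and the groups did not overlap. In order of mean level the groups were TBX2, TBX4, TBX5, TBX3 and controls, where TBX4 and TBX5, and TBX3 and controls, did not differ beyond their spread. The share of the most counted gene was 13.2% to 18.6% in the TBX4 libraries and 12.4% to 40.2% in the controls. When this share entered the fit as a covariate, the DHRS2 log2 fold change with TBX4 was 1.46 (edgeR adjusted p = 9.81e-07).

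**Figure D1:**
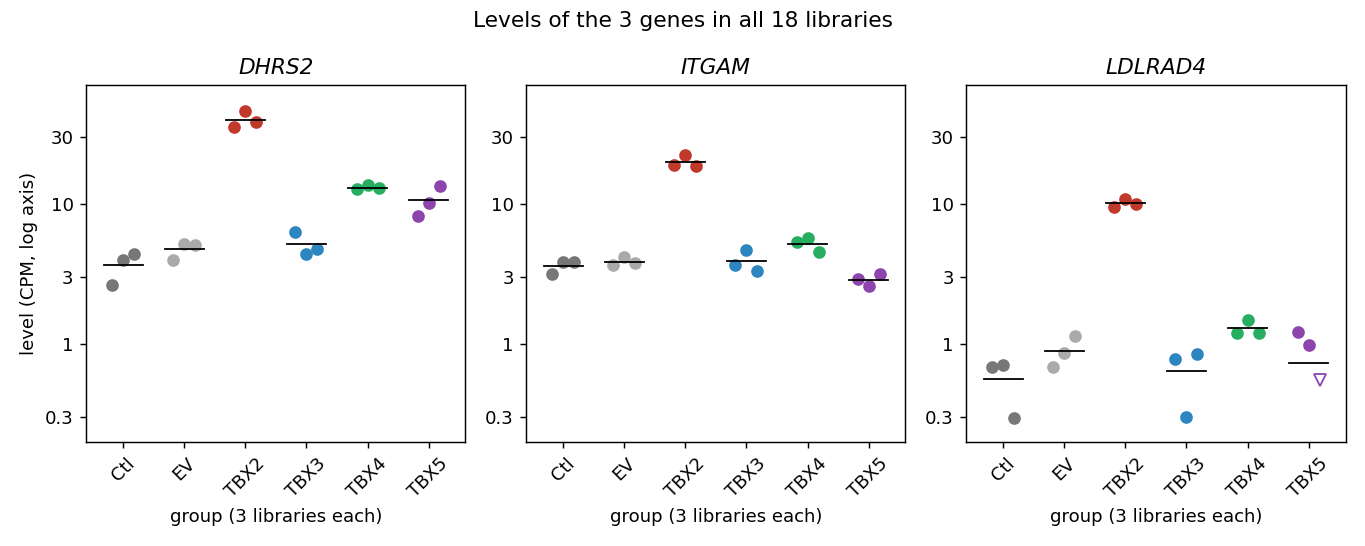
Level of DHRS2, ITGAM and LDLRAD4 in each of the 18 libraries (points, CPM on a log axis) by group, with the mean of 3 libraries as a line. The open triangle stands at the 3-count floor of TBX5 replicate c, where LDLRAD4 had 0 counts. In each panel the 3 TBX2 libraries lie above the other 15, and DHRS2 also stands above the controls in TBX4 and TBX5.

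ITGAM was high in the TBX2 libraries and close to its control level elsewhere. It was read at 18.8, 22.2 and 18.6 CPM with TBX2. The 6 controls ran from 3.13 over a median of 3.78 to 4.17 CPM. The means were 19.9 ± 2.01 CPM (SD, n = 3) and 3.73 ± 0.343 (SD, n = 6), a 5.33-fold difference with no overlap. The log2 fold change was 2.42 (SE 0.11), ranked 25 of 15576.

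With TBX4, ITGAM was read at 5.35, 5.67 and 4.52 CPM. With TBX3 the values were 3.66, 4.66 and 3.29 CPM, and with TBX5 they were 2.88, 2.57 and 3.15 CPM. The TBX4 libraries stood just above the highest control, by 1.08-fold at the closest, and the other groups overlapped the controls. ITGAM rose with TBX4 by 0.48 on the log2 scale (SE 0.14, edgeR adjusted p = 0.0345). DESeq2 gave an adjusted p of 0.117 for it, and it also missed the threshold against the EV controls alone (0.139), without TBX4 replicate a (0.122) or b (0.168), and with the share of that gene as a covariate (0.211). It did not pass with TBX3 (log2 fold change 0.0058, SE 0.17, edgeR adjusted p = 0.992) or TBX5 (-0.38, SE 0.19, edgeR adjusted p = 0.269).

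ITGAM was 0.85 higher with TBX4 than with TBX5 on the log2 scale (SE 0.20, edgeR adjusted p = 0.0548) and lower with TBX3 than with TBX4 (log2 difference -0.48, SE 0.17, edgeR adjusted p = 0.0888). Both missed the threshold in DESeq2, with adjusted p of 0.189 and 0.211, and without TBX4 replicate a or b. TBX3 and TBX5 were not told apart (log2 difference 0.38, SE 0.22, edgeR adjusted p = 0.433). TBX2 exceeded TBX4 by 1.94 (SE 0.12), TBX3 by 2.42 (SE 0.14) and TBX5 by 2.79 (SE 0.16) on the log2 scale. The order of mean levels was TBX2, TBX4, TBX3, controls and TBX5. TBX3, controls and TBX5 could not be told apart as neighbours.

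LDLRAD4 was the lowest of the 3 and had the largest fold change with TBX2. It had 82, 108 and 61 counts in the TBX2 libraries, and between 3 and 18 in the controls. In levels this was 9.39, 10.8 and 9.87 CPM with TBX2, and 0.297 to 1.15 CPM with a median of 0.696 in the controls. The groups were far apart, at 10.0 ± 0.736 CPM (SD, n = 3) against 0.729 ± 0.276 (SD, n = 6), a 13.8-fold difference. The log2 fold change was 3.70 (SE 0.20), ranked 5 of 15576.

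In the other groups LDLRAD4 had at most 19 counts. TBX4 had 15, 19 and 13 counts, or 1.20, 1.47 and 1.20 CPM. These 3 libraries lay above each control library, by 1.05-fold at the closest, and above the TBX3 libraries. TBX3 had 6, 2 and 12 counts, or 0.784, 0.301 and 0.841 CPM. TBX5 had 11, 5 and 0 counts, or 1.22 and 0.989 CPM in replicates a and b, and the count of 0 in replicate c allows up to 0.557 CPM. No contrast of LDLRAD4 without the TBX2 libraries passed the threshold. The log2 fold changes were 0.76 with TBX4 (SE 0.30, edgeR adjusted p = 0.125), -0.12 with TBX3 (SE 0.39, edgeR adjusted p = 0.898) and 0.097 with TBX5 (SE 0.50, edgeR adjusted p = 0.935).

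The TBX4 value of LDLRAD4 depended on the controls. It passed without EV replicate c (log2 fold change 1.00, edgeR adjusted p = 0.0446) and against the Ctl libraries alone (1.17, edgeR adjusted p = 0.0596), and it was 0.33 with the share of that gene as a covariate (edgeR adjusted p = 0.693). EV and Ctl themselves differed by 0.72 (SE 0.41, edgeR adjusted p = 0.622). No difference between TBX3, TBX4 and TBX5 passed, with log2 differences of -0.88 (SE 0.41, edgeR adjusted p = 0.227) for TBX3 against TBX4, -0.23 (SE 0.53, edgeR adjusted p = 0.887) for TBX3 against TBX5 and 0.66 (SE 0.45, edgeR adjusted p = 0.758) for TBX4 against TBX5. The last passed under library totals (1.20, edgeR adjusted p = 0.0873) and was 1.41 without TBX5 replicate a and 0.19 without TBX5 replicate c. TBX2 exceeded TBX4, the next group, by 2.94 (SE 0.24).

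**Figure D2:**
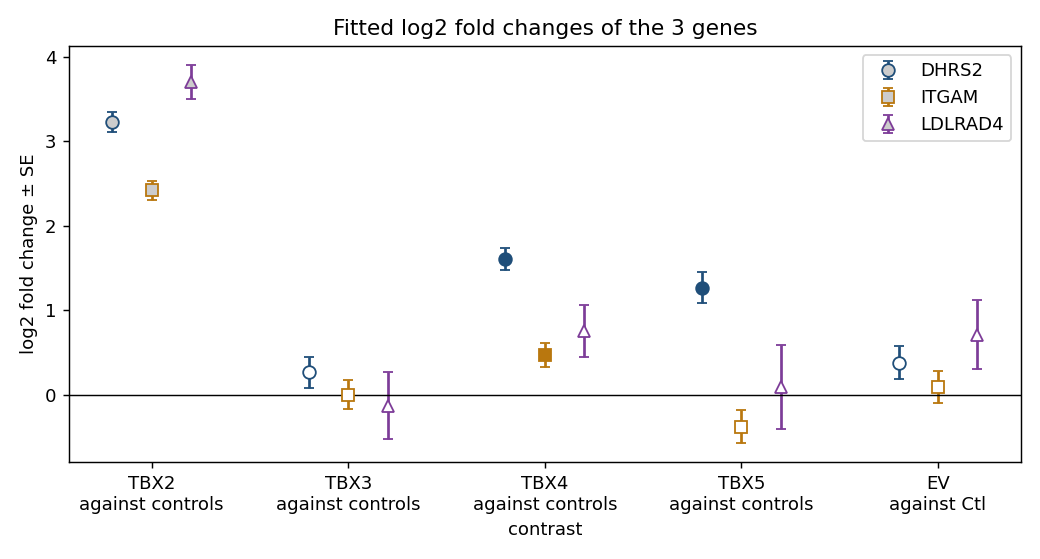
Fitted log2 fold changes (points) with their SE (bars) of DHRS2, ITGAM and LDLRAD4 for each T-box group against the 6 controls and for EV against Ctl. Filled points passed an adjusted p of 0.1, open points did not, and grey points were not tested. DHRS2 is filled with TBX4 and TBX5, ITGAM with TBX4 alone, and LDLRAD4 in none of the tested contrasts.

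Across the members, 0 of 3 passed with TBX3, where 14.9% of all tested genes did. With TBX4, 2 of 3 passed (13.0% of all genes), and with TBX5, 1 of 3 (12.7%). Between TBX3 and TBX4 the same 2 genes, DHRS2 and ITGAM, passed (9.98% of all genes), between TBX3 and TBX5 DHRS2 did (7.41%), and between TBX4 and TBX5 ITGAM did (0.539%). None of the 3 passed between EV and Ctl (0.385%), where edgeR gave 0 unadjusted p under 0.05. DESeq2 gave an adjusted p of 1 for DHRS2 and ITGAM there and none for LDLRAD4. In the TBX2 contrast 32.6% of all tested genes passed, from which nothing is read about genes chosen by it. The 4 contrasts against the controls share the same 6 control libraries, which also took part in the choice of the genes.

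Compared per kilobase of canonical transcript, DHRS2 was the highest of the 3 in the TBX2 libraries, at 23.6 ± 3.17 CPM per kb (SD, n = 3). ITGAM was at 4.21 ± 0.425 and LDLRAD4 at 1.15 ± 0.0845 CPM per kb. In the controls the order was the same, with 2.50 ± 0.541, 0.790 ± 0.0727 and 0.0837 ± 0.0317 CPM per kb (SD, n = 6).

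Of 13 other genes listed from the DHRS family of short-chain dehydrogenases, 12 were matched and 8 were tested. With TBX2, 2 rose and 1 fell, where 17.0% of all genes rose and 15.6% fell, and none passed with TBX3, TBX4 or TBX5. The median log2 fold change of the 8 with TBX2 was -0.087, beside -0.0013 over all genes. DHRS7 (0.31, SE 0.10, edgeR adjusted p = 0.0214) and DHRS7B (0.32, SE 0.11, edgeR adjusted p = 0.0418) rose, and DHRS3, a retinal reductase, fell (-0.65, SE 0.21, edgeR adjusted p = 0.0250). Under library totals the calls with TBX2 fell from 5079 to 1056 over all genes and from 3 to 0 in this list. DHRS4, a close relative, was at 1.37 CPM in the controls and did not pass in any contrast.

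MDM2, the known binding partner of DHRS2, did not pass in any contrast, with log2 fold changes of -0.064 with TBX2 and 0.099 with TBX5 (edgeR adjusted p = 0.465 and 0.349). Of the 8 genes listed around DHRS2 and MDM2, 2 rose and 1 fell with TBX2, beside 17.0% and 15.6% of all genes, and under library totals none passed. CDKN1A, the p21 cell cycle inhibitor, rose with TBX2 (0.39), TBX4 (0.50) and TBX5 (0.82), the groups where DHRS2 was high, with edgeR adjusted p of 0.0250, 0.00827 and 0.000778. The EV libraries exceeded the Ctl libraries in CDKN1A by 0.53 (edgeR adjusted p = 0.0171). This step between the control groups was larger than the CDKN1A changes with TBX2 and TBX4 against the pooled controls. A link between CDKN1A and DHRS2 was not tested, and the paper describes NCI-H1299 as defective in p53. KEAP1, the sensor of oxidative stress, fell with TBX2 (-0.26), TBX4 (-0.23) and TBX5 (-0.30), with edgeR adjusted p of 0.0145, 0.0320 and 0.0248. The TBX4 value of KEAP1 turned to 0.032 under scaling by library totals.

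Histone deacetylases were listed because deacetylase inhibitors are known to raise DHRS2. Of 18 listed, 17 were tested, and 3 rose and 2 fell with TBX2 (17.0% and 15.6% of all genes), none of them under library totals. HDAC11 rose by 0.61 (edgeR adjusted p = 0.0266) and HDAC7 fell by 0.33 (edgeR adjusted p = 0.00157). With TBX3, where DHRS2 did not pass, 4 rose and 1 fell (8.47% and 6.40% of all genes), none of them under library totals. With TBX4, 0 rose and 1 fell (6.98% and 6.07%), and with TBX5, 0 rose and 3 fell (6.56% and 6.12%). HDAC7 was the one that fell in both (-0.35 and -0.26, edgeR adjusted p = 0.000979 and 0.0268).

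The integrin partner of ITGAM was nearly missing. ITGB2 had between 0 and 6 counts in any library and between 1 and 3 in the TBX2 libraries, so it was not tested. ITGAX and ITGAD, its alpha neighbours on chromosome 16, and ITGAL had at most 2, 4 and 2 counts. Of the alpha subunits that pair with beta2, ITGAM alone passed the filter on low counts.

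Of the 17 beta2 partners, relatives and ligands listed, 9 were tested, and with TBX2 1 rose and 4 fell (17.0% and 15.6% of all genes), none of them under library totals. JAM2, an adhesion molecule, rose by 0.67 (SE 0.20, edgeR adjusted p = 0.0163). ICAM3 (-0.58), ICAM5 (-0.41), CD44 (-0.23) and TLN1 (-0.16) fell, with edgeR adjusted p of 0.0601, 0.0328, 0.0226 and 0.0710. ICAM1, a main ligand of Mac-1, was at 23.3 CPM in the controls and did not pass with TBX2 (-0.11, SE 0.10, edgeR adjusted p = 0.452), and it rose with TBX5 (0.35, edgeR adjusted p = 0.0747). FERMT3, the kindlin of blood cells, rose with TBX4 by 0.90 (edgeR adjusted p = 0.0464), at 18 counts or fewer in any library. The 2 calls of this list with TBX4 fell to 0 in DESeq2, against EV alone and against Ctl alone. With TBX5 the ICAM1 value was 0.0046 under library totals. There, and against EV alone, 0 genes of the list passed with TBX5.

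Of the 25 other integrin subunits, 17 were tested. With TBX2, 3 rose and 3 fell, beside 17.0% and 15.6% of all genes, and under library totals 1 of the 17 passed. The median was 0.038, beside -0.0013 over all genes. The largest values among those that passed with TBX2 were those of ITGA3 (-0.71, edgeR adjusted p = 7.84e-08), ITGAE (0.49, edgeR adjusted p = 0.0203) and ITGA6 (-0.46, edgeR adjusted p = 1.12e-05). ITGA3, a laminin receptor subunit, fell in all 4 contrasts. ITGB8, which activates latent TGF-beta, rose with TBX5 by 1.09 (edgeR adjusted p = 0.0336).

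Leukocyte genes did not appear along with ITGAM. Of 16 leukocyte and myeloid markers, SPI1, the defining myeloid factor, had 0 counts in all 18 libraries, and 9 markers, SPI1 included, had at most 3 counts in any library. The summed level of the 16 markers was 1.98 to 3.72 CPM in the controls and 2.81 to 4.47 CPM with TBX2. The 2 markers that were tested did not pass in any T-box contrast.

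All 30 listed TGF-beta and SMAD genes were tested, and with each factor some rose and some fell. With TBX2, 6 rose and 8 fell (17.0% and 15.6% of all genes), with a median of -0.040, and under library totals 3 passed. With TBX3, 5 rose and 1 fell (8.47% and 6.40% of all genes). With TBX4, 2 rose and 4 fell (6.98% and 6.07%), and with TBX5, 9 rose and 5 fell (6.56% and 6.12%). Under library totals 1 passed with TBX3, 9 with TBX4 and 1 with TBX5. Among ligands and latency proteins, TGFB3 rose with TBX2 (0.56, edgeR adjusted p = 0.0165) and LTBP1 fell (-0.49, edgeR adjusted p = 0.0227).

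Of the SMAD proteins that LDLRAD4 binds, SMAD2 fell with TBX2 by 0.26 (SE 0.06, edgeR adjusted p = 0.00439) and SMAD3 by 0.37 (SE 0.07, edgeR adjusted p = 0.000377). Among inhibitors, SMAD7 rose with TBX2 (0.77), TBX3 (1.02) and TBX5 (0.85), with edgeR adjusted p of 0.000488, 1.5e-05 and 0.00407. SKIL, a SMAD co-repressor, rose with TBX2 (0.64), TBX3 (0.63) and TBX4 (0.23), with edgeR adjusted p of 1.4e-07, 1.97e-07 and 0.0246. PMEPA1, the relative of LDLRAD4, rose with TBX2 (0.54, SE 0.11, edgeR adjusted p = 0.0011) and TBX5 (0.61, SE 0.11, edgeR adjusted p = 0.0014), and so was raised in a group where LDLRAD4 did not pass. NEDD4 fell with TBX5 (-0.32, edgeR adjusted p = 0.00352) and did not pass with TBX2 (0.053, edgeR adjusted p = 0.575).

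Of the 3 other LDLRAD genes, LDLRAD3 alone was tested, and it did not pass with any factor. LDLRAD1 had 0 counts in all libraries and LDLRAD2 at most 2.

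**Figure D3:**
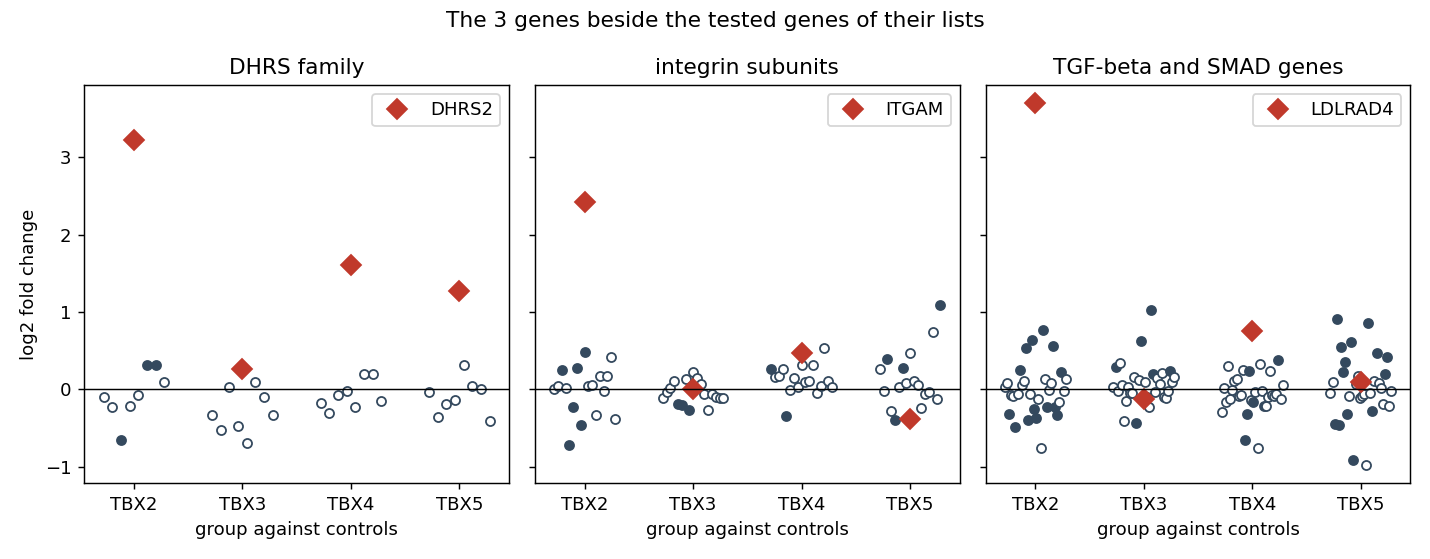
Log2 fold changes of DHRS2, ITGAM and LDLRAD4 (diamonds) and of the tested genes of the DHRS family, the other integrin subunits and the TGF-beta and SMAD list (circles, filled where the adjusted p was under 0.1) in the 4 contrasts against the controls. With TBX2 the circles run from -0.76 to 0.77, and the diamonds are genes chosen by that contrast, so their distance from the circles there is no result.

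The levels of the 3 genes followed each other over the 18 libraries mainly through the TBX2 libraries. Pearson's r of log2(CPM + 1) was 0.84 for DHRS2 with ITGAM, 0.84 for DHRS2 with LDLRAD4 and 0.94 for ITGAM with LDLRAD4, as a description over libraries that share depth and group. Over the 15 libraries without TBX2 the values were 0.26, 0.26 and 0.25. Spearman's rho over these 15 was 0.20 for DHRS2 with ITGAM, 0.55 for DHRS2 with LDLRAD4 and 0.21 for ITGAM with LDLRAD4.

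The genes most like DHRS2 over the 18 libraries were picked by that likeness, so their shared pattern over the groups is no separate result. They were GDAP1, a mitochondrial membrane protein (r 0.97), CFAP54, a cilium protein (0.96), LMBRD2 (0.96), MRPL10, a mitochondrial ribosomal protein (0.95), and PPP4R1L (0.94). CFAP54 averaged 0.720 CPM in controls and 4.80, 0.485, 2.14 and 1.83 CPM in the TBX2, TBX3, TBX4 and TBX5 groups. GDAP1 averaged 26.6, 59.5, 29.2, 41.2 and 32.4 CPM in the same order. Both shared the higher levels of DHRS2 with TBX4 and TBX5, at smaller ratios for GDAP1.

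ITGAM and LDLRAD4 had other companions, which were mostly interferon-stimulated genes. These too were picked by likeness over libraries that include TBX2, so their high levels with TBX2 are no separate result. Among the 5 most like ITGAM were IFI6 (r 0.98), the transfected TBX2 itself (0.96), OAS3 (0.96) and PARP12 (0.95). Among the 5 most like LDLRAD4 were HERC6 (0.97), MYL5 (0.96), IFI6 (0.96) and OAS3 (0.95). IFI6 and OAS3 were thus named for both genes.

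IFI6, an interferon-induced mitochondrial protein, averaged 3.39 CPM in the controls and 40.6 with TBX2. OAS3, which senses double-stranded RNA, averaged 26.8 and 102 CPM. In the TBX3, TBX4 and TBX5 groups OAS3 averaged 23.8, 27.6 and 25.5 CPM. Spearman's rho was lower than r for these genes with ITGAM, at 0.72 for IFI6 and 0.54 for OAS3, so the likeness was mostly that of the 3 TBX2 libraries. With LDLRAD4, rho was 0.85 for HERC6, 0.80 for MYL5, 0.69 for IFI6 and 0.52 for OAS3.

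**Figure D4:**
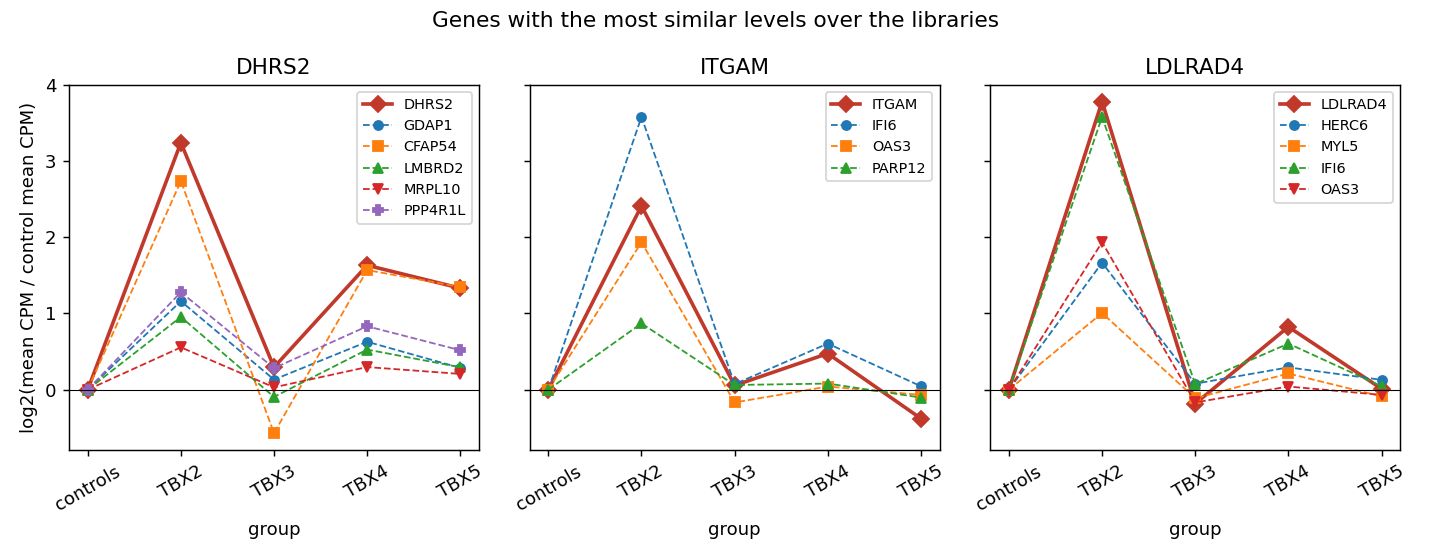
Mean level of each gene relative to its control mean (log2 ratio of mean CPM) in the controls and the 4 T-box groups, for DHRS2, ITGAM and LDLRAD4 (solid lines) and genes among the 5 most like each over the 18 libraries (dashed lines). TBX2 itself is left out of the ITGAM panel. The genes like DHRS2 are also above 0 with TBX4 and TBX5, and those like ITGAM and LDLRAD4 are highest with TBX2. All were picked by this likeness, so the shared patterns are no separate result.

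Of 74 annotated genes within 200 kb of the 3 genes, 20 were tested, and with TBX2 5 rose and 2 fell, beside 17.0% and 15.6% of all genes. Their median log2 fold change was -0.015. Around DHRS2, ZFHX2 rose by 0.51 (edgeR adjusted p = 0.0573) and the other tested neighbours did not pass.

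Around ITGAM, TGFB1I1 (0.43) and RUSF1 (0.42) rose and VKORC1, the vitamin K epoxide reductase, fell (-0.72), with edgeR adjusted p of 0.0982, 0.0482 and 0.000671. The nearest tested neighbour of ITGAM, the lncRNA ENSG00000260060, was read at -0.71 (SE 0.41, edgeR adjusted p = 0.223). FAM210A, 10592 bases beyond the 3′ end of LDLRAD4, rose with TBX2 by 0.57 (SE 0.07, edgeR adjusted p = 3.6e-06) and was read at -0.020, -0.043 and -0.055 with TBX3, TBX4 and TBX5.

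MC5R, a melanocortin receptor 171394 bases beyond LDLRAD4, rose with TBX2 (1.17), TBX4 (1.64) and TBX5 (1.57), with edgeR adjusted p of 0.0209, 0.00135 and 0.0108, at 30 counts or fewer per library. CEP192 fell with TBX2 by 0.20 (edgeR adjusted p = 0.0158) and RNMT fell with TBX4 by 0.19 (edgeR adjusted p = 0.0332). With TBX3 none of the 20 passed.

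**Figure D5:**
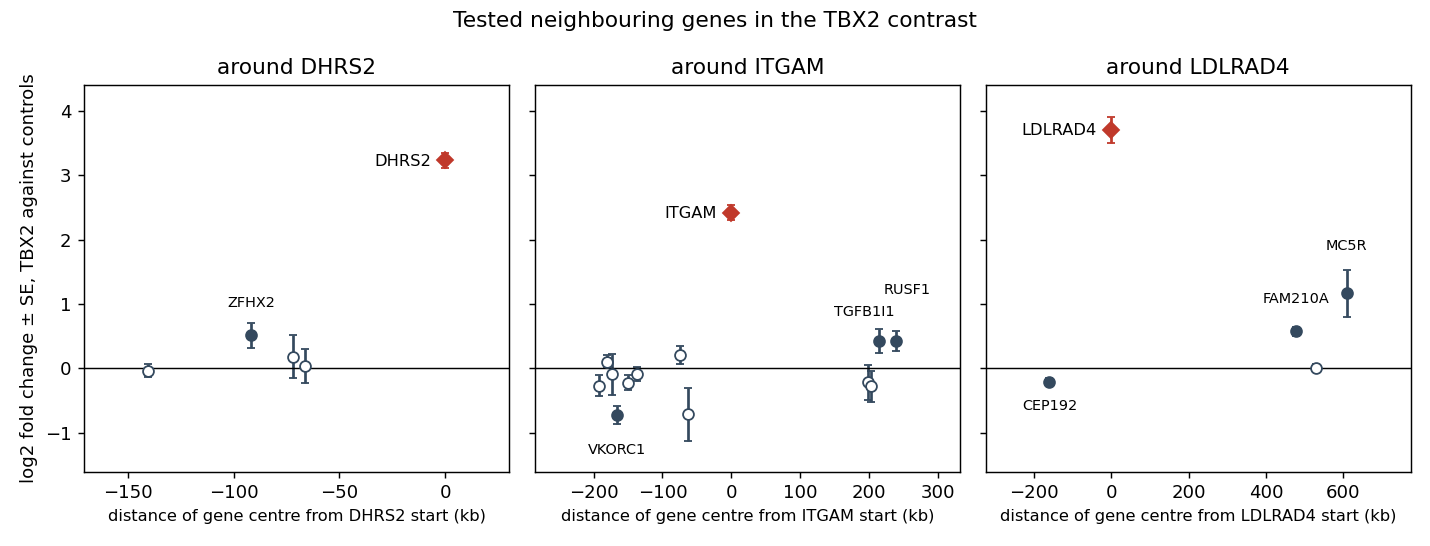
Log2 fold changes with their SE in the TBX2 contrast of DHRS2, ITGAM and LDLRAD4 (diamonds) and of the 20 tested genes within 200 kb of them (circles, filled and named where the adjusted p was under 0.1), by distance of the gene's centre from the start of the member. The neighbours lie between -0.72 and 1.17, and the diamonds are genes chosen by this contrast.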

How the data were processed

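RNA-seq was performed on 18 libraries of NCI-H1299 cells in 6 groups of 3. The authors aligned reads to GRCh37 with STAR 2.3.0 (after bcl2fastq 1.8.4, per the submitters' processing notes) and assigned them to genes with featureCounts in its default mode, which ignores strand. The deposited values are raw counts, without normalization. Groups and replicate letters came from the labels. Nothing states that replicates came from separate cultures, so p-values measure only the spread between libraries, which may be technical.

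The 3 genes and the gene lists were chosen with earlier results of these data known. Genes above 5 counts in 10 or more libraries were kept. As in the study, each T-box group was compared separately with controls, here the 6 pooled EV and Ctl libraries. The paper does not state whether it pooled them. The fits used edgeR 4.0.16 (TMM, quasi-likelihood test, R 4.3.3), Benjamini-Hochberg adjustment over all 15576 genes and a false discovery rate of 0.1. EV was fitted against Ctl, and T-box groups against each other in 1 fit of all libraries. SE was derived from the log2 fold change and its F statistic. Floors cover counting error only. Promoter sequence came from the GRCh37 genome and gene models from GENCODE v44 lifted to GRCh37, which gave symbols for 43631 of 63677 genes. Genes were named by rule: list members that passed in a T-box contrast (up to 6 a list by change with TBX2), direct partners, the 5 genes with the highest Pearson's r of log2(CPM + 1) for each member, and tested neighbours within 200 kb. A few genes and sequences that these rules name are not reported here. Markers were listed as a check of the cells. Replicate letters did not pair the libraries. Chi-square tests of counts within groups found no library deposited more than 1 time. Alternatives, with DESeq2 1.42.0 among them, are described with the limits of the results. The edgeR and DESeq2 fits of TBX4 against the controls were tested on simulated counts with known changes. The other contrasts were not simulated.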

Additional observations from a re-analysis of the deposited data

Results flagged for a closer look

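Tested differences between T-box groups were singled out for 2 of the 3 genes. Those that involve TBX4 compare unlike plasmids, so factor and backbone cannot be told apart there. For DHRS2, the log2 difference was -1.35 for TBX3 against TBX4 and -1.003 for TBX3 against TBX5 (edgeR adjusted p = 5.97e-06 and 0.00171). For ITGAM, it was -0.48 for TBX3 against TBX4 and 0.85 for TBX4 against TBX5 (edgeR adjusted p = 0.0888 and 0.0548). The DHRS2 difference between TBX3 and TBX4 passed in all 16 alternatives, with values from -1.67 to -1.27. That between TBX3 and TBX5 passed in 15 of 16 and missed the threshold under library totals (edgeR adjusted p = 0.671). The ITGAM differences passed in 7 of 16 alternatives for TBX3 against TBX4 and in 8 of 16 for TBX4 against TBX5. No control library stood apart from the other 5 in any of the 3 genes by Dixon's test.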

How the results depend on the processing

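Of 448 alternative fits of the 3 genes, 403 kept the direction and the side of the threshold (for TBX2, the value within 1 SD of the libraries), 23 lost a call, 5 gained one and 17 turned the sign of a value that passed in neither fit. All 65 TBX2 alternatives kept their value. DHRS2 kept its direction and call in every alternative with TBX4 (1.44 to 1.87) and TBX5 (0.94 to 1.48), though its value moved. The cause of the other changes was not tested.

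Under library totals, which moved the median of all genes by 0.25 with TBX4 and -0.31 with TBX5, LDLRAD4 passed with TBX4 (1.00) and for TBX4 against TBX5 (1.20), as did DHRS2 for TBX4 against TBX5 (0.93). DHRS2 for TBX3 against TBX5 (-0.75) and ITGAM for TBX3 against TBX4 (-0.80) were lost, and signs turned for ITGAM with TBX3 (-0.070) and LDLRAD4 with TBX5 (-0.20) and TBX3 against TBX5 (0.011). ITGAM with TBX3 also turned without the most counted gene (-0.045), with no filter (-0.016) and against EV alone (-0.045), LDLRAD4 with TBX3 against Ctl alone (0.28) and with TBX5 against EV alone (-0.20). LDLRAD4 with TBX4 passed against Ctl alone (1.17). ITGAM with TBX4 was lost in DESeq2 (0.47), against EV alone (0.43) and with the share of the most counted gene added (0.44), an alternative chosen after seeing the data. ITGAM for TBX3 against TBX4 was lost with no filter (-0.48), in DESeq2 (-0.47), at an adjusted p of 0.05 (-0.48) and in a separate fit (-0.48), and for TBX4 against TBX5 in DESeq2 (0.85), at 0.05 (0.85) and in a separate fit (0.85). At 10 or more counts in every library LDLRAD4 gave no value.

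Leaving out 1 library at a time, the log2 fold change ran from -0.12 to 0.14 for ITGAM with TBX3, -0.44 to 0.11 for LDLRAD4 with TBX3, 0.41 to 0.56 for ITGAM with TBX4, 0.61 to 1.00 for LDLRAD4 with TBX4 and -0.65 to 0.57 for LDLRAD4 with TBX5. For TBX3 against TBX4 it ran from -0.60 to -0.33 for ITGAM, for TBX3 against TBX5 from -0.69 to 0.53 for LDLRAD4, and for TBX4 against TBX5 from 0.78 to 0.94 for ITGAM and from 0.19 (without TBX5 replicate c) to 1.41 (without TBX5 replicate a) for LDLRAD4. ITGAM lost TBX4 against TBX5 without TBX4 replicate a or b or any one TBX5 library, and TBX3 against TBX4 without TBX3 replicate a or c or TBX4 replicate a or b.

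The replicate block changed no call of the 3 genes (DHRS2 with TBX4 1.63, ITGAM with TBX4 0.47, LDLRAD4 with TBX4 0.76). Same-letter libraries of different groups had a mean correlation of deviations of -0.0024, from -0.15 to 0.25, so the letters were not taken as pairs.

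Library totals lowered the genes called from 5079 to 1056 with TBX2, 2317 to 35 with TBX3 and 1975 to 93 with TBX5, and moved the share that was higher from 52.2% to 78.9%, from 57.0% to 100%, from 51.8% to 40.9% and, with TBX4, from 53.5% to 98.8%. Against Ctl alone 1191 genes were called with TBX5. Of 144 list counts under alternatives, 39 differed over 1.5 times. With TBX2 under library totals, the calls fell from 14 to 3 in the TGF-beta list, from 6 to 1 in the integrins and from 3, 5, 5 and 3 to 0 in the DHRS, beta2, deacetylase and MDM2 lists. Of 99 called list and marker values, 9 turned sign under library totals, all with TBX4 or TBX5. LDLRAD4 had 0 to 19 counts in the libraries outside TBX2.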
